A study of Homo sapiens with 18 samples.

Results

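Human anterior neural ectoderm cells at day 2 of differentiation (aNE) were compared with cells of the same origin kept until day 4, then in a medium meant for forebrain (aNE_T). The 4 libraries, 2 in each group, were taken by their labels from a series of 18 libraries. Of the 37550 rows of the series' expression table, 14811 genes had at least 1 TPM in at least 2 of the 4 libraries and were tested. TPM is a relative transcript abundance, scaled for transcript length and for the library's total, so levels of different genes can be set side by side.

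All cells were wild-type H1, an established human pluripotent stem cell line, and both groups passed through the same first 2 days. Day 1 was in CDM2, a chemically defined basal medium, with the TGF-beta and NODAL receptor inhibitor A8301, the BMP receptor inhibitor LDN193189, the WNT secretion inhibitor C59 and the MEK inhibitor trametinib at 250 nM. For day 2 the cells were replated with A8301 at 1 µM, LDN193189 at 100 nM, C59 at 1 µM and thiazovivin, a kinase inhibitor given for survival, at 1 µM. The aNE cells were collected then. The aNE_T cells went on in a day-3 medium with XAV939 at 1 µM, a tankyrase inhibitor that dampens the cell's own response to WNT, LDN193189 at 100 nM and FGF2 at 20 ng/mL, and were collected at day 4. What the medium held after day 3 is not used here. Cells for day 2 were plated at 37500 cells per cm2 and cells for day 4 at 75000 cells per cm2. Age, medium and plating density therefore changed together, and no cells kept in the day-2 medium until day 4 were analysed here, so their parts cannot be told apart. The 2 libraries of a group are labelled as replicates of 1 line, and p-values measure only the spread between such libraries.

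The anterior end of the neural plate gives rise to the telencephalon, the eye field and the hypothalamus, under low WNT, BMP and NODAL signalling. Its margin, the anterior neural ridge, secretes FGF8, which acts through FGF receptors and the ERK kinases and is known to promote telencephalic identity. ERK activity in turn induces genes for its own inhibitors, the Sprouty, Spred and DUSP proteins, so their transcripts are commonly read as a record of the pathway.

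The 4 libraries had between 14319 and 14602 genes at 1 TPM or more, and mitochondrial genes took 3.19% and 3.28% of the TPM in aNE and 2.52% and 2.29% in aNE_T. TPM keeps no read counts, so depth is unknown. Log2 levels of the tested genes correlated at 0.986 between the aNE libraries and 0.987 between the aNE_T libraries, against 0.934 to 0.94 between the groups, as a description across genes, which are not independent. Cells of a type being fewer and their RNA per cell being lower cannot be told apart in bulk libraries such as these.

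Carrying the cells on to day 4 in forebrain medium changed 1536 of the 14811 genes (10.4%), with 789 higher (5.33%) and 747 lower (5.04%) in aNE_T. A gene was called by limma at a Benjamini-Hochberg adjusted p under 0.05 and a log2 change of at least 1, on log2(TPM + 1), a scale that understates the change of low genes. The median change over all tested genes was 0.01. The groups were without overlap in all 1536 called genes, and also in 10670 of all 14811 tested genes (72.0%). Of the called genes 192 passed the filter only through aNE and 161 only through aNE_T, and such genes had to differ.

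**Figure D1:**
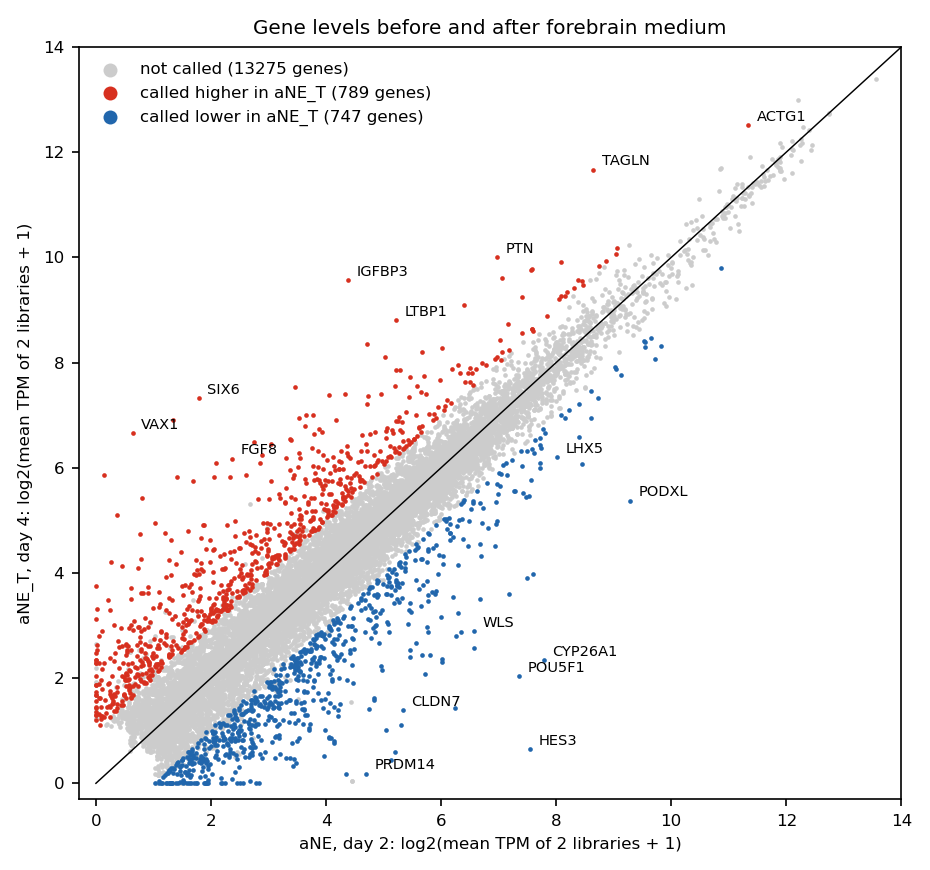
Mean level of each of the 14811 tested genes in aNE (day 2, x axis) and aNE_T (day 4 in forebrain medium, y axis), both as log2(TPM + 1) over 2 libraries, with the 789 genes called higher in red and the 747 called lower in blue. Optic stalk and eye field factors (VAX1, SIX6) and IGFBP3 lie far above the line of equal levels, and HES3, CYP26A1 and POU5F1 far below it.

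Forebrain transcription factors moved in both directions, with VAX1 and SIX6 far higher and OTX2, LHX5 and HESX1 lower in aNE_T. Of the 33 forebrain and eye field factors listed, 19 were tested, of which 7 rose, 4 fell and 8 were not called, with a median change of 0.27. That compares with 5.33% higher and 5.04% lower of all tested genes. Of the list, VAX1 and EMX1 passed the filter through 1 group alone.

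VAX1, a homeobox factor of the optic stalk and ventral forebrain, was at 0.56 and 0.549 TPM in the aNE libraries and 93.7 and 107 TPM in the aNE_T libraries, the largest log2 rise under the rule for named genes (6.02 ± 0.21, SE, adjusted p = 1.37e-10). It was below 1 TPM in each day-2 library and abundant in each day-4 library. SIX6, an eye field and hypothalamic factor, rose from 2.16 and 2.76 TPM to 161 and 159 TPM (5.55 ± 0.18, adjusted p = 7.8e-11). The LIM factor LHX2, needed for eye and cortex, rose from 14.3 and 14.3 TPM to 101 and 102 TPM (2.74 ± 0.32, adjusted p = 1.71e-05). SIX6 and LHX2 were already detected at day 2, in both libraries.

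FEZF2, a forebrain zinc finger factor, rose from 14.4 and 12.6 TPM to 82.6 and 75.4 TPM (2.46 ± 0.24). ZIC1 rose from 12.1 and 9.09 TPM to 80 and 73.9 TPM (2.76 ± 0.30). SP8, an anterior patterning factor, rose from 7.57 and 8.69 TPM to 30.7 and 28.6 TPM (1.75 ± 0.18). SIX3, which represses WNT genes in the anterior plate, was the most abundant of the 7 at day 4. It stood at 187 and 192 TPM in aNE and 414 and 379.5 TPM in aNE_T (1.06 ± 0.15, adjusted p = 0.000103), a change close to the threshold that was at 0.997 without replicate 1 of aNE_T.

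The 4 that fell were OTX2, LHX5, HESX1 and EMX1. OTX2, the factor of the forebrain and midbrain plate, fell from 203 and 214 TPM to 71 and 62.7 TPM (-1.63 ± 0.14, adjusted p = 1.22e-06). LHX5 fell from 258 and 258 TPM to 71 and 74.1 TPM (-1.82 ± 0.22). HESX1, an early repressor of the anterior plate, fell from 105 and 118 TPM to 27.6 and 28.5 TPM (-1.95 ± 0.24). These 3 genes stayed well detected in both day-4 libraries. EMX1, a cortical factor, was low in both groups, at 1.98 and 1.72 TPM and 0.273 and 0.512 TPM, and its call was lost without replicate 1 of either group (log2 change of -0.97 and -0.91).

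RAX, an eye field factor, was at 26.8 and 32.2 TPM in aNE and 14.7 and 12.4 TPM in aNE_T. Its groups did not overlap, but the change of -1.07 ± 0.42 was not called (adjusted p = 0.0636), while the fit of the 4 libraries alone called it (adjusted p = 0.00252). FEZF1 was at 323 and 325 TPM and 227 and 220.3 TPM and was not called either (-0.53, adjusted p = 0.0946). ZIC2, LMO4, DLX5 and MEIS2 were among the other uncalled factors, with changes between -0.11 and 0.39. EMX2, TBR1, NEUROG2 and NKX2-1, markers of dorsal cortex and hypothalamus, reached at most 0.261 TPM in any of the 4 libraries.

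Early neural genes moved unevenly. Of 18 tested, 7 rose, 3 fell and 8 were not called, with a median of 0.65, beside 5.33% higher and 5.04% lower of all genes. ZBTB16 and HES5 passed the filter through aNE_T alone. ZBTB16, a zinc finger factor of early neural progenitors, rose from 0.788 and 0.706 TPM to 44.4 and 39.3 TPM (4.61 ± 0.15). DLK1, a Notch-related membrane protein, rose from 124 and 139.8 TPM to 803 and 756 TPM (2.55 ± 0.20). The progenitor filament gene NES rose from 289.6 and 275 TPM to 633 and 597 TPM (1.12 ± 0.09). These were joined by FABP7, DACH1, CDH2 and HES5. HES5, a Notch target, was low throughout, at 0.0968 and 0 TPM in aNE, the second value being listed at 0, and 1.25 and 1.09 TPM in aNE_T, and its call was lost without replicate 2 of aNE (0.98) or replicate 1 of aNE_T (0.996).

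The falls were SOX21 (157 and 152 TPM to 46 and 46.4 TPM), POU3F1 (126 and 117 TPM to 22.4 and 21.1 TPM) and LIX1 (33.1 and 36.1 TPM to 14.8 and 15.5 TPM). POU3F1 is a POU factor of the epiblast and early neural plate. SOX2, shared by pluripotent and neural cells, was at 289 and 297 TPM and 457 and 453 TPM, an increase of 0.63 on the log2 scale that did not reach the threshold of size (adjusted p = 0.000592). PAX6 was at 28.9 and 29.3 TPM and 17 and 19.7 TPM and was not called (-0.64, adjusted p = 0.0301).

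Neuronal genes were mostly low. Of 7 tested, MAP2 rose, TUBB3 and STMN2 fell and 4 were not called, beside 5.33% higher and 5.04% lower of all genes. Of these 7, 2 passed the filter through 1 group alone, STMN2 among them. TUBB3, a neuronal tubulin, fell from 383 and 398 TPM to 184 and 165 TPM (-1.16 ± 0.10, adjusted p = 1.27e-06). MAP2 rose from 47.4 and 50.7 TPM to 104 and 98.2 TPM (1.03 ± 0.14), and its call was lost without replicate 1 of aNE (0.98) or of aNE_T (0.99). STMN2 was at 2.14 and 1.49 TPM and 0.317 and 0.401 TPM, and its call was lost without replicate 1 of either group.

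Among pluripotency genes POU5F1, PRDM14, ZFP42, DNMT3B and TDGF1 fell. Of 12 tested none rose, 5 fell and 7, SOX2 among them, were not called, with a median of -0.91, beside 5.04% of all genes lower. PRDM14 and TDGF1 passed the filter through aNE alone. POU5F1, the central factor of pluripotency, was at 2900 and 2878 TPM in undifferentiated cells, 162 and 164 TPM in aNE and 2.66 and 3.57 TPM in aNE_T (-5.33 ± 0.22 from day 2 to day 4, adjusted p = 9.58e-10). Related gene copies share POU5F1 and TDGF1 sequence, so their values are uncertain to that extent. PRDM14, a repressor that guards pluripotency, fell from 24 and 26.1 TPM to 0.272 and 0 TPM (-4.53 ± 0.20), the second day-4 value being listed at 0. ZFP42, a zinc finger gene of pluripotent cells, fell from 92.7 and 95.7 TPM to 5.13 and 4.72 TPM (adjusted p = 8.46e-12). DNMT3B, a de novo DNA methyltransferase, fell from 413 and 429 TPM to 158 and 162 TPM (-1.40 ± 0.08). TDGF1, a NODAL co-receptor, was the remaining member that fell, from 3.47 and 3.52 TPM. LIN28A, an RNA-binding protein kept in early neural cells, stood at 1342 and 1302 TPM and 717 and 709 TPM and was not called at -0.89. NANOG reached at most 0.358 TPM in the 4 libraries and was not tested.

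**Figure D2:**
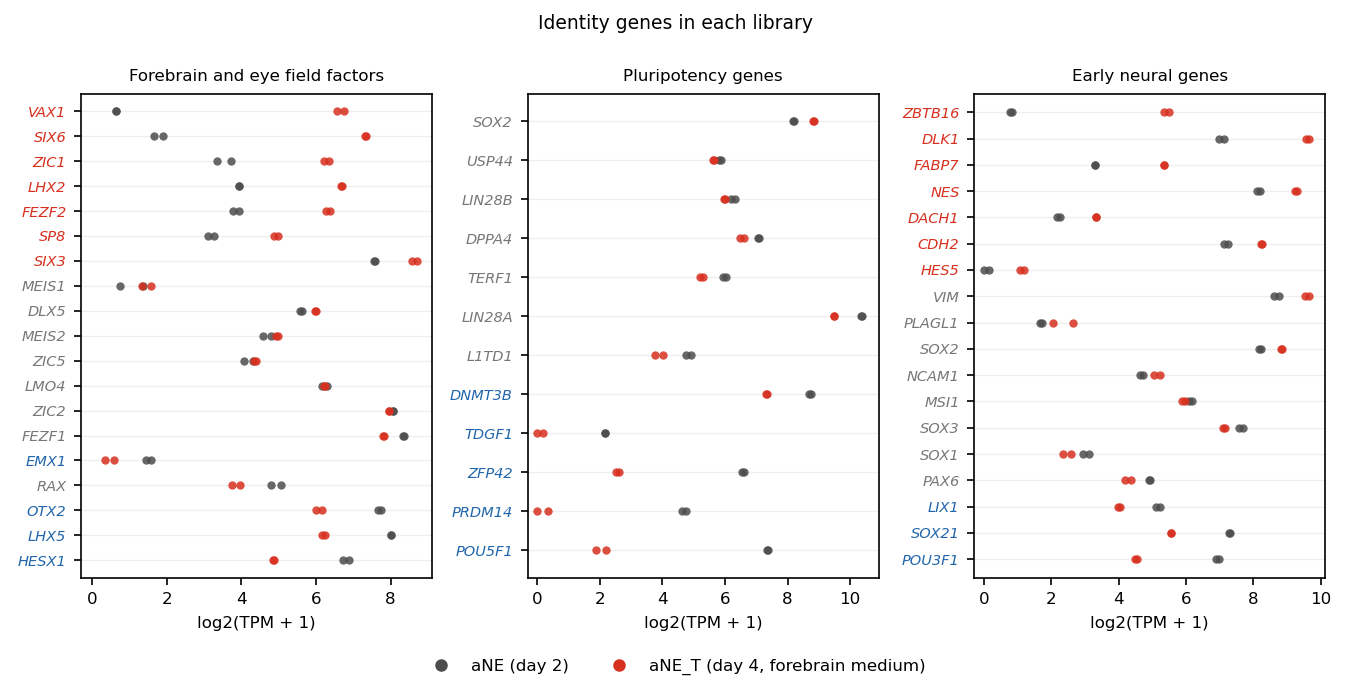
Level of each tested forebrain, pluripotency and early neural gene in each library (x axis, log2(TPM + 1); each dot is 1 library, grey for aNE at day 2 and red for aNE_T at day 4), with genes ordered by their change and named in red where called higher, blue where called lower and grey where not called. The aNE dots of VAX1 and SIX6 sit at the left end and their aNE_T dots far to the right, and none of the 12 pluripotency genes is named in red.

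Most genes listed as responding to FGF and ERK signalling rose. Of the 22 listed, 21 were tested, of which 12 rose, FOSL1 fell and 8 were not called, with a median change of 1.32, beside 5.33% of all genes higher. None had passed the filter through 1 group alone. Both groups had met the MEK inhibitor on day 1, and aNE_T alone met added FGF2. The part of either in these changes was not tested. Against the midbrain and hindbrain media at day 4, described below, 17 and 18 of the 21 genes were not called.

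IL17RD, a membrane inhibitor of FGF receptors, rose from 9.75 and 10.2 TPM to 186 and 184 TPM (4.08 ± 0.08, adjusted p = 1.53e-12). The Sprouty inhibitor SPRY4 rose from 6.39 and 5.03 TPM to 88.2 and 90.6 TPM (3.76 ± 0.10). SPRY1 rose from 17.8 and 20.6 TPM to 170.4 and 164 TPM (3.06 ± 0.07), and SPRY2 from 13.9 and 13.4 TPM to 102 and 109 TPM (2.86 ± 0.08). The groups lay far apart in all 3 Sprouty genes. DUSP6, the ERK phosphatase, was at 149 and 156 TPM in undifferentiated cells, 29.3 and 33.6 TPM in aNE and 276 and 272 TPM in aNE_T (3.09 ± 0.08 from day 2 to day 4, adjusted p = 8.46e-12).

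The ETS factors that FGF signals induce also rose. ETV5 rose from 6.09 and 8.47 TPM to 85.1 and 87.4 TPM (3.41 ± 0.11), and ETV4 from 10.7 and 12.2 TPM to 52.2 and 55.4 TPM (2.14 ± 0.10). ETV1, of the same subfamily, was at 25.3 and 33.2 TPM and 26.7 and 31.8 TPM, with overlapping groups. IER3, an immediate early gene, rose from 12.9 and 12.6 TPM to 127 and 127 TPM (3.22 ± 0.10). DUSP4, SPRED2, SPRED3 and PHLDA1 rose by between 1.06 and 1.72, and the call of PHLDA1 was lost without replicate 2 of aNE (0.98). The immediate early genes EGR1, EGR3 and FOS, with changes of 0.28, -0.29 and -0.18, were not called, nor were MYC (-0.21) and CCND1 (-0.03). FOSL1, an AP-1 subunit, fell from 17.1 and 17.4 TPM to 6.15 and 5.18 TPM (-1.46 ± 0.15).

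Because these genes moved together, RefSeq promoter windows (GRCh38.p14, 250 bases before to 50 after each start site) were searched for the octamer read by capicua, a repressor that ERK releases (TCAATGAA, TCAATGGA, TGAATGAA or TGAATGGA, on either strand). Of 12 genes of the list with a window, DUSP6, ETV1 and SPRED3 had a match, and 4.62% of all 27305 genes with a window did. DUSP6 had 2 matches, starting 24 bases before and at base 2 after its start site, of which the first is inside the stretch printed here. A match is a description of the letters only. The 250 bases before the DUSP6 start site (chr12:89352502-89352751, minus strand, printed 5′ to 3′ on that strand) are shown with the octamer, which reads on the opposite strand, in capitals.
DUSP6: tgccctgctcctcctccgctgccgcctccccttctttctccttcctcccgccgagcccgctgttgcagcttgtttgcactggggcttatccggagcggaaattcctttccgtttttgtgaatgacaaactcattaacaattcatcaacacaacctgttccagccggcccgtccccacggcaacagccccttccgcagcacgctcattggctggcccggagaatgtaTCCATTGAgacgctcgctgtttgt

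Among the ligands and receptors themselves, FGF8 rose and FGF2, FGFR2, FGFR3 and FGFR4 fell. Of 13 tested, 4 rose, 4 fell and 5 were not called, with a median of -0.50, beside 5.33% higher and 5.04% lower of all genes. FGF17 and FGF18 passed the filter through aNE_T alone. FGF8, the ligand of the anterior neural ridge, was at 4.69 and 3.63 TPM in aNE and 77.5 and 64.8 TPM in aNE_T (3.81 ± 0.33, adjusted p = 1.2e-06). Its relative FGF17 was at 0.0955 and 0.0513 TPM and 1.46 and 1.4 TPM, called but low. FGF13, an intracellular member of the family, and the decoy receptor FGFRL1 also rose, each by 1.55 or less. FGF2, the factor that was added to the medium, fell as a transcript from 41 and 37 TPM to 12.6 and 13.5 TPM (-1.51 ± 0.12).

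The receptor genes FGFR2, FGFR3 and FGFR4 fell. FGFR3 showed the highest values of the 3, 179 and 176 TPM in aNE and 43.6 and 42 TPM in aNE_T (-2.03 ± 0.18). FGFR2 fell from 89.4 and 88.2 TPM to 28.7 and 33.1 TPM and FGFR4 from 54.6 and 43.7 TPM to 9.75 and 8.85 TPM. FGFR1 was the most abundant receptor in both groups, at 739 and 696 TPM and 454 and 446 TPM, and its decrease did not reach the threshold of size (-0.67 ± 0.09).

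**Figure D3:**
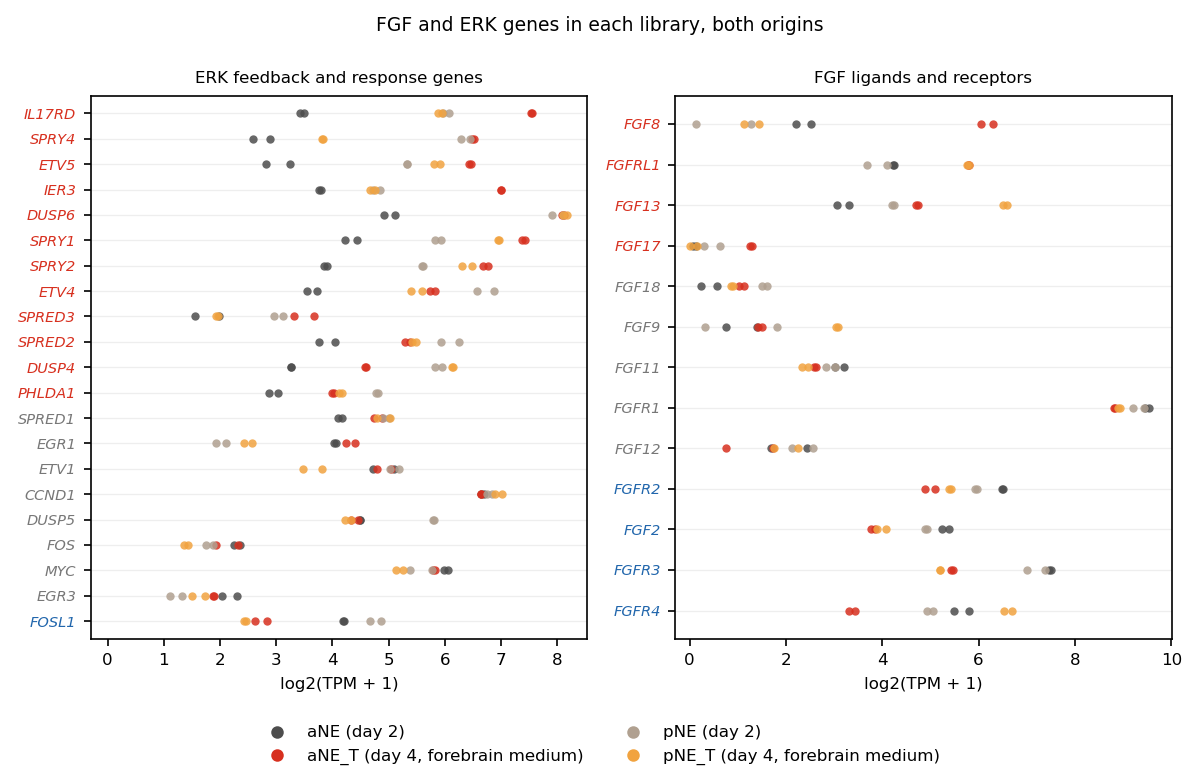
Levels of the tested ERK response genes (left) and FGF ligands and receptors (right) as log2(TPM + 1) on the x axis, each dot 1 library, in aNE and aNE_T and in the posterior groups pNE and pNE_T, with gene names coloured by the call of aNE_T against aNE (red higher, blue lower, grey not called). For the 8 genes at the top of the left panel the aNE dots lie left of the dots of the other 3 groups.

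Genes that mark positions behind the forebrain gave a mixed picture. GBX2, a factor known for the anterior hindbrain and also an FGF target, rose from 1.04 and 1.05 TPM to 29.3 and 30.7 TPM (3.92 ± 0.20, adjusted p = 5.28e-09). IRX1, IRX2 and IRX3, factors of the plate behind the forebrain, fell. IRX3 went from 33.3 and 32.1 TPM to 7.56 and 6.67 TPM (-2.06 ± 0.21) and IRX1 from 11.7 and 10.8 TPM to 1.38 and 1.9 TPM, while the fall of IRX2 by 1.03 was 0.94 without replicate 1 of aNE. In this list of hindbrain and HOX genes 7 were tested, GBX2 rose and 3 fell, and the listed HOX genes reached at most 0.319 TPM in any of the 4 libraries. Of the 5 midbrain and isthmus genes tested, FGF8 and FGF17 (described above) rose, PAX2 was at 1.04 and 1.35 TPM and 1.73 and 1.47 TPM and was not called, and LMX1A fell from 4.41 and 4.8 TPM to 0.322 and 0.153 TPM. FGF17 passed the filter through aNE_T alone and LMX1A through aNE alone, so both had to differ. Beside both lists stand 5.33% higher and 5.04% lower of all genes. EN1, the midbrain and isthmus factor, was listed at 0 in all 4 libraries.

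HES3 and CYP26A1 had the largest falls of all named genes. HES3, a HES-family repressor of neural progenitors, was at 196 and 176 TPM in aNE and 0.778 and 0.375 TPM in aNE_T (-6.90 ± 0.28, adjusted p = 8.45e-10). CYP26A1, the enzyme that breaks down retinoic acid, fell from 219 and 223 TPM to 3.57 and 4.63 TPM (-5.45 ± 0.17, adjusted p = 7.8e-11). Both were abundant in each aNE library and under 5 TPM in each aNE_T library. HES3 passed the filter through aNE alone and had to differ. Of the 11 tested retinoid genes, CYP26A1, DHRS3 and RARG fell, CRABP1 rose and 7 were not called, with a median of -0.79. Of all genes 5.33% were higher and 5.04% lower. Of the 11, 4 passed the filter through 1 group alone, DHRS3 among them. DHRS3, a retinaldehyde reductase, fell from 15.1 and 18.3 TPM to 0.695 and 0.72 TPM (-3.37 ± 0.12). CRABP1, a binding protein for retinoic acid, rose from 159 and 177 TPM to 613 and 595 TPM (1.84 ± 0.06).

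The DR5 retinoic acid response element, searched by name on both strands in the same RefSeq windows, matched CYP26A1 and RARB among 16 listed genes with a window, and 2.75% of all genes. The 250 bases before the CYP26A1 start site (chr10:93073643-93073892, plus strand) hold the match on the opposite strand, from 90 to 74 bases before the start, in capitals.
CYP26A1: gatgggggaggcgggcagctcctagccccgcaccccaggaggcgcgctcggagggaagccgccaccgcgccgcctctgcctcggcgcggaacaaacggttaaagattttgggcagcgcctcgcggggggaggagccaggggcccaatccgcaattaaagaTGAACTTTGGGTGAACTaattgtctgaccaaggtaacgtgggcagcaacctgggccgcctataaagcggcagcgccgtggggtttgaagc

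Epithelial adhesion genes such as EPCAM, CDH1 and 5 claudins fell, and the cadherins CDH2, CDH6 and CDH11 and the matrix genes COL2A1 and FN1 rose. Of 27 adhesion genes tested, 12 fell, 6 rose and 9 were not called, with a median of -0.31, beside 5.04% lower and 5.33% higher of all genes, and GRHL2 passed the filter through aNE alone. EPCAM, an epithelial adhesion molecule, fell from 148 and 138 TPM to 11.4 and 10.8 TPM (-3.57 ± 0.09, adjusted p = 1.02e-11). CDH1, the epithelial cadherin, fell from 55.6 and 49.8 TPM to 8.91 and 4.8 TPM (-2.82 ± 0.23). The aNE_T libraries were the lower ones for both genes, without overlap. The tight junction claudins CLDN3, CLDN4, CLDN6, CLDN7 and CLDN10 all fell, CLDN7 the most, from 37 and 41.9 TPM to 1.75 and 1.51 TPM (-3.94 ± 0.21). CLDN6 stayed the most abundant claudin of the list, at 919.9 and 892 TPM and 330.0 and 309 TPM.

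ESRP1, a splicing factor of epithelial cells, fell from 34.6 and 32.1 TPM to 7.12 and 5.64 TPM (-2.22 ± 0.15). GRHL2, an epithelial transcription factor, fell from 6.8 and 5.7 TPM to 0.479 and 0.444 TPM, and ITGA6, a laminin receptor subunit, fell by 1.95. PODXL, an apical glycoprotein outside the list, fell from 649 and 593 TPM to 39.4 and 41.7 TPM (-3.90 ± 0.10). NECTIN1 sat at the threshold (-1.04), with -0.98 without replicate 2 of aNE_T.

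CDH2, the neural cadherin, rose from 149.7 and 139 TPM to 298 and 304 TPM (1.05 ± 0.10). CDH11, a mesenchymal cadherin, rose from 13.9 and 17.3 TPM to 174 and 160.3 TPM (3.34 ± 0.13, adjusted p = 5.13e-10). CDH6 rose from 14.1 and 15.4 TPM to 56.6 and 51.1 TPM (1.80 ± 0.08). The matrix genes COL2A1 and FN1 rose as well, COL2A1 from 92.4 and 74.8 TPM to 553 and 532 TPM and FN1 from 31.9 and 27.8 TPM to 164 and 171 TPM. ITGB1, a subunit of their receptors, rose by 1.14 ± 0.08. TJP1, LAMA1 and COL4A1 were not called, with changes of 0.28, 0.06 and 0.51, nor were OCLN (-0.31), CDH3 (-0.74) and COL4A2 (0.54). SPON1, which encodes a matrix protein of the floor plate, fell from 14.4 and 15.1 TPM to 5.68 and 5.77 TPM (-1.22 ± 0.11).

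Target genes of TGF-beta and NODAL signalling moved in both directions. Of 10 tested, 5 rose, 4 fell and CCN2 was not called, with a median of 0.74, beside 5.33% higher and 5.04% lower of all genes. TDGF1 and BAMBI passed the filter through aNE alone. LTBP1, which anchors latent TGF-beta in the matrix, rose from 36.9 and 35.7 TPM to 454 and 439 TPM (3.58 ± 0.10, adjusted p = 2.68e-11). SKIL, a feedback inhibitor, rose from 6.96 and 6.79 TPM to 29.4 and 30.4 TPM (1.97 ± 0.18). TGFBI and CER1 also rose, and the rise of SMAD7 (1.05) lost its call without replicate 2 of aNE (0.73) or replicate 1 of aNE_T (0.87). The falls were TDGF1, the activin antagonist FST (99.6 and 105 TPM to 17.9 and 20.1 TPM), BAMBI and INHBE. A8301 was in the day-2 medium and not in the day-3 medium as far as the labels give it. Whether it bears on these genes was not tested.

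**Figure D4:**
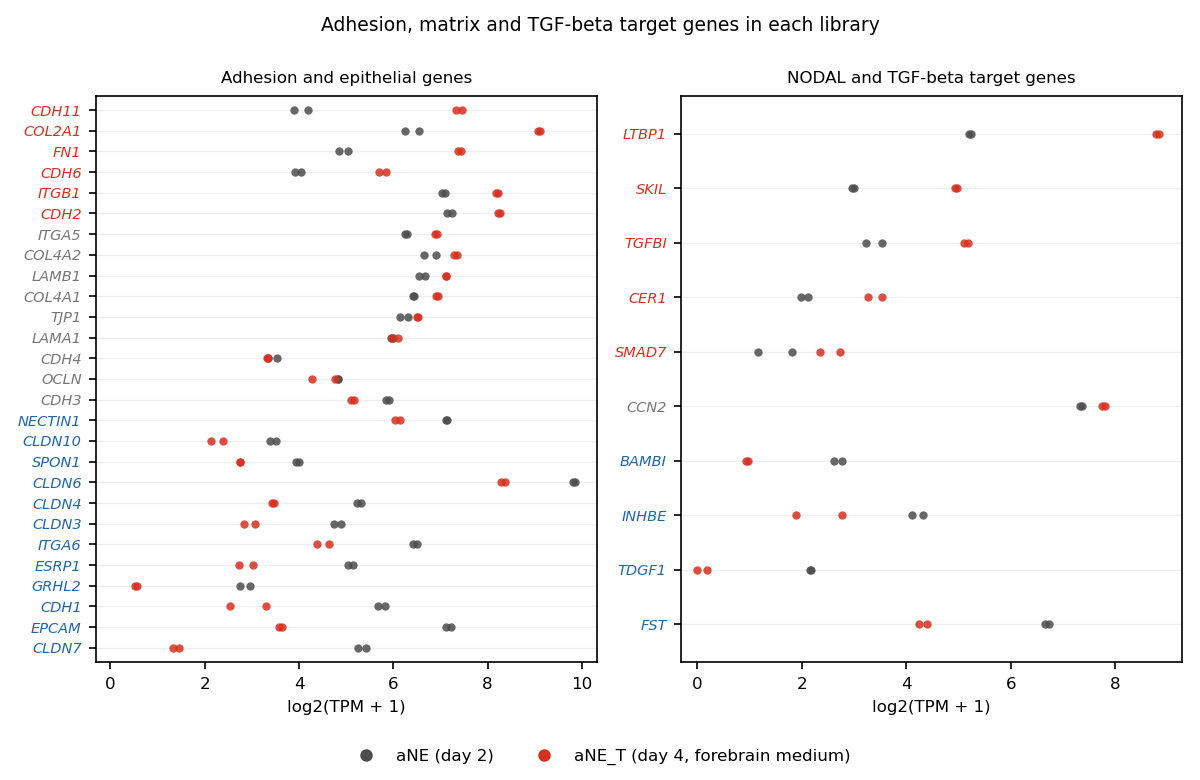
Levels of the tested adhesion and epithelial genes (left) and of NODAL and TGF-beta target genes (right) in each aNE library (grey) and aNE_T library (red), as log2(TPM + 1) on the x axis, with gene names coloured by the call (red higher, blue lower, grey not called). CDH11, COL2A1 and FN1 head the left panel and CLDN7 and EPCAM stand at its foot, and LTBP1 heads the right panel.

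Genes of the actin cytoskeleton that the factors SRF and YAP drive were among those with the largest gain in TPM. Of 22 tested, 9 rose, none fell and 13 were not called, with a median of 0.77, against 5.33% of all genes higher. TAGLN, an actin-binding protein of contractile cells, was at 398 and 403 TPM in aNE and 3140 and 3369 TPM in aNE_T (3.02 ± 0.08, adjusted p = 1.92e-11). MYL9, a myosin light chain, rose from 272 and 266 TPM to 982 and 944 TPM (1.84 ± 0.10). CNN1 rose from 36.3 and 36.4 TPM to 221 and 239.8 TPM (2.63 ± 0.12), and ACTA2, smooth muscle actin, from 65.1 and 61.9 TPM to 312 and 310.0 TPM (2.27 ± 0.08). Actin genes and their processed copies share sequence, so ACTA2, ACTG1, ACTG2 and ACTB are uncertain to that extent. Thiazovivin was in the day-2 medium and not in the day-3 medium as far as the labels give it. Whether it bears on the YAP and SRF genes was not tested.

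ANKRD1 and AMOTL2, common readouts of YAP, rose by 1.71 ± 0.21 and 1.27 ± 0.12. TPM2 and CRIM1 rose by 1.07 and 1.13. CCN1 and CCN2, equally common readouts, were at 289.8 and 286 TPM and 222 and 214 TPM in aNE_T and were not called, with increases of 0.96 and 0.44. The call of ACTG2 (1.09, adjusted p = 0.0212) was lost when any of the 4 libraries was left out, with values from 0.97 to 1.22, and that of CRIM1 without replicate 2 of aNE (0.92). Without ACTG2 the count of rises is 8 of 22. The CArG box, the motif that SRF binds, searched by name in the same windows, matched ACTG2 and SRF among 16 genes with a window, and 1.6% of all genes.

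The largest gains in TPM of all called genes included ACTG1, from 2659 and 2526 TPM to 6036 and 5711 TPM, PTN, a secreted growth factor, from 124 and 126 TPM to 1033 and 1031 TPM, and IGFBP3, an IGF-binding protein, from 20.3 and 19.6 TPM to 745 and 769 TPM (5.18 ± 0.11, adjusted p = 4.07e-12). CSRP2 and CALD1, actin-associated proteins, rose by 2.21 and 2.20, and PKM and TUBA1A by 1.11 and 1.03. Among the largest losses in TPM were MFGE8 (849.7 and 829 TPM to 267 and 269 TPM), CD24, TUBB2B, DPYSL3 and the lipid synthesis genes FASN and SCD. The ribosomal RNA pseudogene RNA5-8SP6 headed that order and is uncertain, since it shares sequence with ribosomal RNA, and its call was lost without replicate 1 of aNE and without replicate 2 of aNE_T. A pseudogene of the 5S ribosomal RNA, RNA5SP283 (3.3 and 0 TPM to 51.8 and 59.5 TPM), was among the 15 largest rises with the same limit.

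The 15 largest log2 rises and falls also held genes of other roles. SULF1, an extracellular heparan sulfatase that alters growth factor binding, rose from 2.31 and 2.14 TPM to 49.8 and 56.3 TPM (4.07 ± 0.19). AMIGO2, a cell adhesion protein of neurons, rose from 0.707 and 0.713 TPM to 24.4 and 26.8 TPM (3.96 ± 0.13). SCNN1A, a subunit of the epithelial sodium channel, fell from 87.7 and 61.9 TPM to 1.61 and 1.75 TPM (-4.80 ± 0.32), and NPTX1, a neuronal pentraxin, from 38.5 and 33 TPM to 0.611 and 0.426 TPM (-4.60 ± 0.35). RARRES2, which encodes the chemoattractant chemerin, fell from 39.8 and 37.6 TPM to 1.07 and 1.22 TPM, PPP1R1B, a phosphatase inhibitor, from 20.2 and 18.7 TPM to 0.268 and 0 TPM and SYT6, a synaptotagmin, from 62.6 and 65.4 TPM to 4.92 and 2.94 TPM. AMIGO2 passed the filter through aNE_T alone, and NPTX1 and PPP1R1B through aNE alone.

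WNT target genes were mostly not called. Of 10 tested, none rose, SP5, TNFRSF19 and FZD7 fell and 7 were not called, with a median of -0.25, beside 5.04% of all genes lower. Of the 10, 2 passed the filter through 1 group alone, SP5 among them. SP5, a direct WNT target, was at 1.44 and 2.08 TPM in aNE and 0.0243 and 0 TPM in aNE_T, the second value being listed at 0, and its call (adjusted p = 0.0117) was lost without replicate 2 of aNE or either aNE_T library (adjusted p between 0.0501 and 0.0845). AXIN2, the general WNT feedback gene, was at 6.27 and 5.55 TPM and 7.8 and 9.1 TPM and was not called (0.45). WLS, which carries WNT proteins to the cell surface, fell from 100.0 and 88.5 TPM to 5.76 and 7.03 TPM (-3.69 ± 0.12, adjusted p = 8.83e-11).

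Among WNT ligands and antagonists 7 of 17 tested rose and WNT4 fell, with a median of 0.28, beside 5.33% higher and 5.04% lower of all genes. Of the 17, 6 passed the filter through 1 group alone, among them WNT3, RSPO3 and WNT4. CER1, counted above, and RSPO3, FZD5, FZD8, WNT3, WNT5A and WNT5B were the rises. WNT5A and WNT5B, ligands of the branch without beta-catenin, rose from 4.25 and 3.82 TPM to 20.1 and 20.1 TPM and from 2.92 and 2.2 TPM to 17.1 and 17.5 TPM. The receptors FZD5 and FZD8, both known from the anterior plate, rose, FZD5 from 189 and 189.5 TPM to 408 and 391 TPM (1.07 ± 0.14) and FZD8 from 38.5 and 36 TPM to 121 and 114 TPM (1.63 ± 0.16).

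Of the 17 tested BMP genes, beside 5.33% higher and 5.04% lower of all genes, GDF6 and NOG rose, BMP4, BMP6 and BAMBI fell and 12 were not called. All of these 5 but BMP4 passed the filter through 1 group alone and had to differ. BMP4, a ligand, fell from 209 and 210.3 TPM to 83.6 and 86.2 TPM (-1.29 ± 0.20), while the BMP targets ID1, ID2 and ID3 were not called (-0.81, -0.30 and -0.11). In the hedgehog list of 9 tested genes, GLI1, the pathway's readout, fell from 12.8 and 10.1 TPM to 1.65 and 1.27 TPM (-2.34 ± 0.46, adjusted p = 0.00138) and PTCH1 was not called (0.14). HHIP also fell, with -0.99 without replicate 2 of aNE_T, and GAS1 rose. In the Notch list 5 of 15 rose and none fell, beside 5.33% higher and 5.04% lower of all genes. Of the 15, 2 passed the filter through 1 group alone, HES5 among them. DLL1, a ligand, rose from 13.2 and 14.4 TPM to 55.8 and 47.2 TPM (1.82 ± 0.35), HES1, a target, from 38.4 and 39.5 TPM to 104 and 98.7 TPM (1.36 ± 0.10), and NOTCH2 by 1.21. HES4 and HES5 were the other members called. HES4, at 12 and 12 TPM and 26.8 and 23.9 TPM, lost its call without either aNE library (1.02 each) or without replicate 1 of aNE_T (0.94).

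Lists of general cell functions varied, beside 10.4% of all genes called. In 24 cell cycle genes only CCND2 was called, higher at 1.16, and none of 23 stress response genes was called by limma. Of 20 glycolysis and hypoxia genes, PKM rose, LDHA, ENO2, ALDOC and EGLN3 fell and 15 were not called. EGLN3, a HIF hydroxylase, fell from 73.7 and 77.1 TPM to 6 and 6 TPM (-3.45 ± 0.14). Of 17 genes of sterol and fatty acid synthesis, DHCR7, SCD and FASN fell and 14 were not called, with a median of -0.45.

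Markers of other cell types were measured in the same libraries. Of 10 neural crest markers, PAX7, SNAI2, ETS1 and CDH6 rose, SOX10 was at 3.36 and 2.44 TPM and 1.39 and 0.981 TPM and was not called, and FOXD3, TFAP2A, TFAP2B, PAX3 and MSX1 did not pass the filter. PAX7 passed the filter through aNE_T alone and had to differ, and of all tested genes 5.33% were higher. The summed level of the 10 went from 25.6 and 25.8 TPM in aNE to 92 and 86.7 TPM in aNE_T. CDH6, also in the adhesion list, made up most of it, with 14.1 and 15.4 TPM in aNE and 56.6 and 51.1 TPM in aNE_T. PAX7, also known from dorsal neural tube, rose from 0.126 and 0.354 TPM to 7.89 and 6.16 TPM, and SNAI2, a repressor of CDH1, from 2 and 2.92 TPM to 13.6 and 15.8 TPM. The part of such cells in the adhesion and matrix changes was not tested. In the aNE_T libraries FOXD3, TFAP2A and TFAP2B reached at most 0.315 TPM, PAX3 was at 1.45 and 0.715 TPM and MSX1 at 0.393 and 1.13 TPM.

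Of 11 surface ectoderm and placode markers 9 were tested, of which KRT19, TFAP2C, GRHL2 and EYA2 fell and none rose, beside 5.04% of all genes lower. GRHL2 and EYA2 passed the filter through aNE alone and had to differ. KRT5 and TP63 reached at most 0.261 TPM. Of 11 mesoderm markers 3 were tested, of which KDR rose and 2 were not called, with a median of -0.01. KDR rose from 3.35 and 3.56 TPM to 18.8 and 19.1 TPM, and TBXT reached at most 0.101 TPM. Of 7 endoderm markers only CXCR4 was tested, and it rose. SOX17 and FOXA2 reached at most 0.415 TPM. FOXA1, also untested, was at 0.92 and 1.48 TPM in aNE and 0.281 and 0.584 TPM in aNE_T. The extraembryonic list had 6 tested, with GABRP and TFAP2C lower and APOA1 higher, and the call of APOA1 was lost without replicate 2 of aNE (0.62) or replicate 2 of aNE_T (0.77). Of 7 retinal pigment and neural retina markers 4 were tested, of which PMEL and SIX6 rose and 2 were not called. PMEL, a gene of retinal pigment cells, rose from 44.5 and 47.8 TPM to 129.5 and 125 TPM. MITF (3.67 and 2.62 TPM and 2.99 and 3.56 TPM) was not called. TYR, TYRP1 and RLBP1 did not pass the filter and reached at most 0.237 TPM. Beside these lists stand 5.33% higher and 5.04% lower of all genes.

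The same forebrain medium was also given to posterior neural ectoderm (pNE), which had received on day 2 the retinoid receptor agonist TTNPB, FGF2 and XAV939 in place of C59. These cells were plated at 150000 cells per cm2 for day 4 (pNE_T), so origin and density changed together. The response to the medium differed between the origins, by the interaction term in limma, for 1062 genes (7.17%), of which 638 (4.31%) responded higher from aNE and 424 (2.86%) lower. The filter on aNE and aNE_T left out genes expressed only from pNE, and with a filter over all 18 libraries 676 genes responded higher and 540 lower.

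Of the 19 tested forebrain factors 13 responded higher from aNE, and MEIS1 lower, beside 4.31% higher and 2.86% lower of all genes. VAX2, an eye factor of the list that the filter left untested, was at 2.46 and 2.88 TPM in pNE and 17.2 and 12 TPM in pNE_T, against 0.628 and 0.862 TPM in aNE_T. SIX6 was at 1.88 and 2.31 TPM in pNE and 0.546 and 1.04 TPM in pNE_T (difference of the log2 responses 6.34 ± 0.25, adjusted p = 2.48e-09). VAX1 was at 1.27 and 2.21 TPM in pNE and 3.05 and 2.74 TPM in pNE_T (5.49 ± 0.29). Both factors thus stayed low in the posterior libraries. OTX2, which fell from aNE, was at 28.3 and 26.6 TPM in pNE and 0.988 and 0.634 TPM in pNE_T, so that its response was higher from aNE (2.35 ± 0.20). LHX5 was at 38.7 and 51.1 TPM and 0.835 and 0.174 TPM there (3.14 ± 0.31).

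Of the 21 ERK response genes 14 responded higher from aNE and none lower, beside 4.31% higher and 2.86% lower of all genes. DUSP6 was at 274 and 238 TPM in pNE and 274 and 289 TPM in pNE_T (2.95 ± 0.11, adjusted p = 1.19e-09). SPRY4 went from 77.5 and 86 TPM in pNE to 13 and 13.2 TPM in pNE_T (6.31 ± 0.15). The pNE libraries thus held DUSP6 and SPRY4 high at day 2, where the aNE libraries held them low. GBX2, at 172 and 216 TPM in pNE and 38.4 and 33.9 TPM in pNE_T, moved in opposite directions from the 2 origins (6.31 ± 0.28, adjusted p = 5.2e-09). KDR, CEACAM21 and TLR4 also rose from aNE and had higher responses there, by 5.42, 7.30 and 5.08.

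In the other direction, IGF2 was at 900.0 and 972 TPM in pNE_T and 2.8 and 2.55 TPM in aNE_T, a difference of responses of -7.79 ± 0.23 (adjusted p = 1.38e-10). IGF2 overlaps a readthrough gene with INS and is uncertain to that extent. HES3 (-6.96), BAMBI (-5.13), WLS (-4.85), DHRS3 (-4.46), NPTX1 (-4.92), BMPER (-4.84) and SPX (-6.02) were other lower responses that the rule for named genes took. WLS fell from aNE and stood at 71.5 and 62.1 TPM in pNE and 162 and 139 TPM in pNE_T. Of the 22 YAP and SRF genes 3 were called for the difference, all lower from aNE, beside 2.86% of all genes lower. They were ANKRD1 (-2.91 ± 0.29), CCN2 (-1.27 ± 0.14) and CNN1 (-1.18 ± 0.17). TAGLN was at 273 and 275 TPM in pNE and 2300 and 2158 TPM in pNE_T, below its levels in aNE and aNE_T, and its response was not called different.

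Anterior cells at day 4 in the midbrain medium (aNE_M) and the hindbrain medium (aNE_H) shared origin, age and plating density with aNE_T, and their media's composition is not used here. Against aNE_M, 1563 genes differed (10.6%), 1115 higher in aNE_T (7.53%) and 448 lower (3.02%). Against aNE_H, 1052 differed (7.1%), 824 higher (5.56%) and 228 lower (1.54%). Genes that only aNE_M or aNE_H expressed did not pass a filter set on aNE and aNE_T, which raises the share of higher calls. Quantile normalization moved the split against aNE_H to 627 higher and 313 lower. Both comparisons use the aNE_T libraries, so their counts are given side by side only.

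Of the 19 forebrain factors, 12 were higher in aNE_T than in aNE_M and OTX2 lower, and 11 were higher than in aNE_H and none lower. Of all genes 7.53% were higher and 3.02% lower than in aNE_M, and 5.56% and 1.54% than in aNE_H. Of the listed factors that did not pass the filter and were not tested, 3 reached 1 TPM in aNE_M, with OTX1 at 10.9 and 11.6 TPM, EMX2 at 13.2 and 14.9 TPM and VAX2 at 2.79 and 2.73 TPM there and all of them under 1 TPM in aNE_T. SIX6 was at 0.0584 and 0.0239 TPM in aNE_M and 2.86 and 3.2 TPM in aNE_H, lower than in aNE_T by 7.27 and 5.32 on the log2 scale. FEZF2 was at 0.414 and 0.271 TPM and 2.25 and 2.84 TPM. VAX1 was low in aNE_M, at 1.92 and 1 TPM, and closer to the forebrain level in aNE_H, at 38.5 and 39.1 TPM (1.34 ± 0.21 against aNE_H). OTX2 was higher in aNE_M, at 136 and 162 TPM, than in aNE_T (-1.14 ± 0.14). IGFBP3, at 1.51 and 1.88 TPM in aNE_M and 16.8 and 18.8 TPM in aNE_H, had the largest difference from both media of the genes higher in aNE_T, and SIX6, SLC15A3, FEZF2, PDGFB, GPR176 and STOML3 were among the next.

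WNT targets were mostly lower in aNE_T than in aNE_M, and 5 of them also than in aNE_H. Of 10 tested, 8 were lower in aNE_T than in aNE_M and none higher, beside 3.02% lower and 7.53% higher of all genes. Against aNE_H 5 were lower, NKD2 was higher and 4 were not called, beside 1.54% lower and 5.56% higher of all genes. DKK1, a WNT antagonist and target that did not pass the filter, was at 387 and 459 TPM in aNE_M and listed at 0 in aNE_T. SP5 was at 706 and 473 TPM in aNE_M and 68.6 and 33.3 TPM in aNE_H against 0.0243 and 0 TPM in aNE_T. AXIN2 was at 314 and 312 TPM in aNE_M and 35.1 and 32.8 TPM in aNE_H (-5.06 ± 0.10 and -1.89 ± 0.10). WLS was at 173 and 208 TPM and 251 and 246 TPM, and FOXB1, a midbrain and diencephalic factor, at 97.8 and 96.9 TPM and 10.2 and 7.95 TPM against 0.0332 and 0.0314 TPM in aNE_T. NOG, STRA6, LGI1 and BGN were also among the genes furthest below both media.

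Of the 22 YAP and SRF genes, 18 were higher in aNE_T than in aNE_M and AMOTL1 lower, and 7 were higher than in aNE_H and AMOTL1 lower. Beside these and the following lists, 7.53% of all genes were higher and 3.02% lower than in aNE_M. Against aNE_H the shares were 5.56% and 1.54%. TAGLN was at 107 and 93.2 TPM in aNE_M and 815 and 910.0 TPM in aNE_H, differences of 5.01 ± 0.08 and 1.92 ± 0.08. TPM1, a tropomyosin gene that was not called between day 2 and day 4 (1418 and 1440 TPM and 2222 and 2209 TPM), was at 111 and 113 TPM in aNE_M (4.29 ± 0.06). ANKRD1 was at 0.491 and 0.306 TPM in aNE_M and 78.4 and 83.7 TPM in aNE_H. Of the 21 ERK response genes, 4 were higher than in aNE_M, none was lower and 17 were not called. Against aNE_H, 2 were higher, SPRY4 was lower and 18 were not called. DUSP6 was at 227.9 and 224.5 TPM in aNE_M and 336.5 and 351.7 TPM in aNE_H, and was called against neither. FGF8 was at 2.5 and 2.42 TPM in aNE_M and 9.83 and 5.36 TPM in aNE_H, below aNE_T by 4.38 and 3.12 on the log2 scale. Of the 27 adhesion genes, 7 were higher than in aNE_M, SPON1 was lower and 19 were not called. Against aNE_H, 4 were higher, CDH6 and SPON1 were lower and 21 were not called. EPCAM, at 12.55 and 13.2 TPM in aNE_M and 8.86 and 9.66 TPM in aNE_H, was called against neither medium. Nor were CDH11, CYP26A1 and DHRS3.

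**Figure D5:**
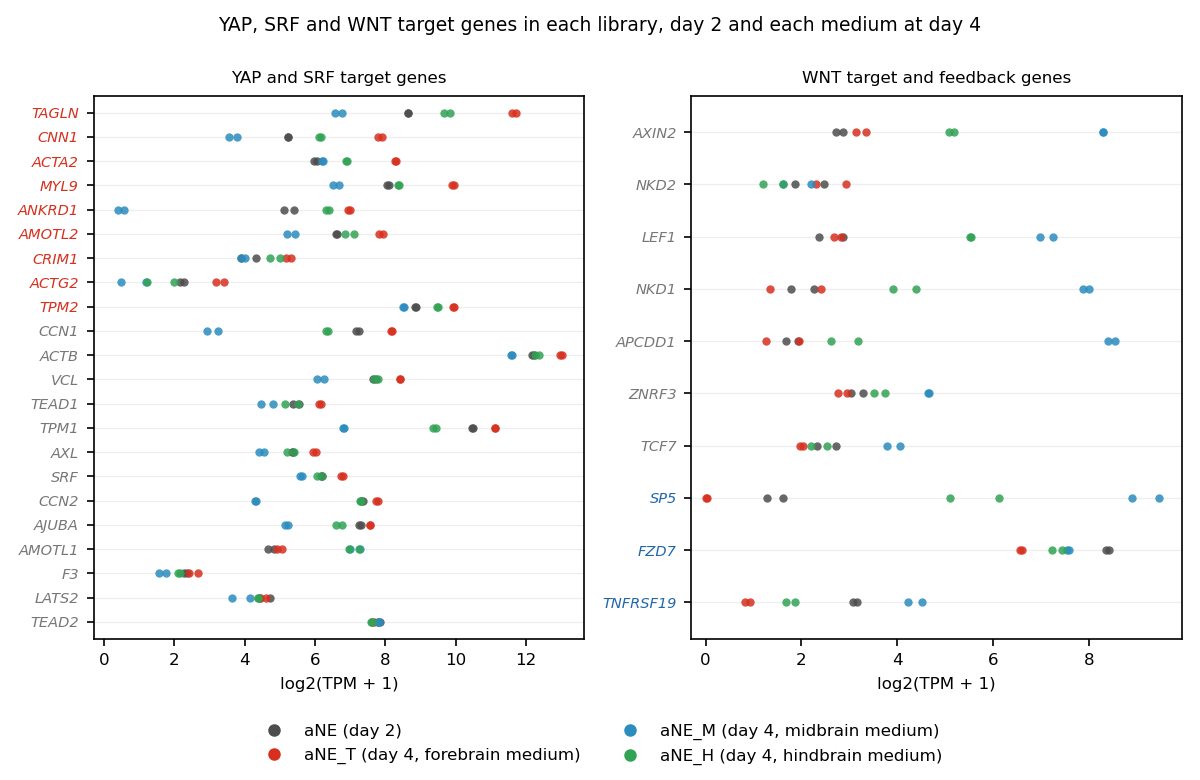
Levels of the tested YAP and SRF target genes (left) and WNT target and feedback genes (right) as log2(TPM + 1) on the x axis, each dot 1 library, in aNE at day 2 and in aNE_T, aNE_M and aNE_H at day 4, with gene names coloured by the call of aNE_T against aNE (red higher, blue lower, grey not called). For TAGLN, CNN1, TPM1 and MYL9 the aNE_T dots lie right of all other groups, and for SP5, APCDD1, AXIN2, NKD1 and LEF1 the aNE_M dots do.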

How the data were processed

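RNA of 18 libraries of 9 groups, 2 each, was sequenced in bulk, and the authors deposited 1 table of TPM per gene and library. Per the submitters' processing notes, bcl2fastq, FastQC, Trim Galore, kallisto, deepTools and the build hg38 were used. The transcript annotation is not given in the sources used here. TPM is scaled by length and library total and keeps no depth, so a rise of abundant genes lowers the TPM of all others. Groups follow the labels. Rows with at least 1 TPM in at least 2 of the 4 aNE and aNE_T libraries were kept, log2(TPM + 1) was fitted with limma 3.58.1 in R 4.3.3 (empirical Bayes with a mean trend) over all 18 libraries, and p-values were adjusted by the Benjamini-Hochberg method over the 14811 genes. Some genes are not reported here and were left out of the lists. The script was tested on simulated data. The libraries, gene lists and rules were chosen with earlier results of these data known. Named genes were those of the lists, the 15 largest changes each way, the 10 largest in TPM and the 8 largest in the other comparisons. Alternatives changed the pseudocount, filter, scaling, libraries fitted and replicate block, and left out each library.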

Additional observations from a re-analysis of the deposited data

Results flagged for a closer look

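The response to forebrain medium was tested for a difference between anterior and posterior origin, and 1062 genes passed. The largest differences in each direction under the rule for named genes are given as the change in aNE minus the change in pNE on the log2 scale. Higher from aNE were CEACAM21 (7.30), SIX6 (6.34), SPRY4 (6.31), GBX2 (6.31), VAX1 (5.49), KDR (5.42) and TLR4 (5.08). CEACAM21, an immunoglobulin-family surface protein, was at 1.62 and 1.48 TPM in aNE and 114 and 124 TPM in aNE_T, and at 19.2 and 18.3 TPM in pNE and 3.9 and 6.05 TPM in pNE_T. TLR4, a receptor of innate immunity, was at 0.168 and 0.244 TPM in aNE, 16.9 and 18.1 TPM in aNE_T, 5.13 and 4.71 TPM in pNE and 1.79 and 1.56 TPM in pNE_T. It passed the filter through aNE_T alone.

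Lower from aNE were IGF2 (-7.79), HES3 (-6.96), SPX (-6.02), BAMBI (-5.13), NPTX1 (-4.92), WLS (-4.85), BMPER (-4.84) and DHRS3 (-4.46). SPX, a secreted peptide gene, was at 1.94 and 2.07 TPM in aNE_T and 407 and 438 TPM in pNE_T. HES3 was high only in the aNE libraries of these 4 groups, while pNE held 7.3 and 8.23 TPM and pNE_T 12.2 and 5.32 TPM. Plating density at day 4 and the day-2 medium differed with origin and cannot be told apart from it.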

How the results depend on the processing

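The 1536 calls of aNE_T against aNE became 1830 with a pseudocount of 0.1, 1520 without a filter, 1113 at 5 TPM, 1503 with median-ratio scaling (751 higher, 752 lower), 1521 with quantile normalization and 1596 in a fit of the 4 libraries alone. Leaving out 1 library gave 1437 to 1546 calls, 948 to 1035 for the difference by origin, 1518 to 1631 against aNE_M and 1001 to 1143 against aNE_H. By adjusted p alone, with no threshold of size, the counts were 5227, 1948, 5412 and 4601 in that order of comparisons, since the threshold of size removes most small changes. Deviations of same-numbered aNE and aNE_T libraries from their group means correlated at -0.069 across genes. The range over all 36 pairs of groups was -0.125 to 0.099. All of these pairs join same-numbered libraries, so the range cannot tell whether such libraries share more than a number. A replicate block gave 1543, 1052, 1570 and 1058 calls. Against aNE_H the higher share was 78.3% as reported and 66.7% after quantile normalization.

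Of 227 genes named that were tested, 181 were called, 17 of these lost the call under at least 1 alternative, 3 uncalled genes gained it, and none reversed. The scalings moved the median of all genes by less than 0.1. With a pseudocount of 0.1, 7 of 30 list medians moved, all in the same direction as reported. Depth is unknown, 2 libraries a group limit the precision, and low genes are understated.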

Other observations

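Genes outside the lists, chosen after their values were seen, extended the matrix and junction groups. Fibrillins rose, FBN2 from 52.5 and 47.8 TPM to 306 and 281 TPM (2.53 ± 0.12) and FBN1 from 12.4 and 14.5 TPM to 63.1 and 63.5 TPM (2.16 ± 0.18). MMP2, a matrix protease, rose from 26.3 and 24.6 TPM to 167 and 158 TPM (2.63 ± 0.08), and COL5A2, a fibrillar collagen, from 3.26 and 2.04 TPM to 30.7 and 27.7 TPM (3.07 ± 0.15). ZEB1, a repressor of epithelial genes, rose from 3.77 and 2.46 TPM to 20.3 and 21.2 TPM (2.42 ± 0.19, limma adjusted p = 4.93e-07), while its relative ZEB2 was at 26 and 23.7 TPM and 18.2 and 17.5 TPM and was not called. On the epithelial side, SPINT1, a protease inhibitor, fell from 77.2 and 78 TPM to 8.35 and 8.53 TPM (-3.06 ± 0.16), ESRP2 from 18.1 and 16.7 TPM to 2.16 and 0.68 TPM and MARVELD3, a tight junction protein, from 16.2 and 15.9 TPM to 0.903 and 0.748 TPM. MARVELD3 passed the filter through aNE alone.

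Sarcomere and natriuretic genes were also among the rises. ACTA1, skeletal muscle actin, rose from 37.1 and 34.4 TPM to 198 and 178 TPM (2.36 ± 0.11), with the sequence shared among actins as a limit. MYL4, an atrial myosin light chain, rose from 0.183 and 0.392 TPM to 35.5 and 31 TPM (4.73 ± 0.17), and MYL7 from 2.37 and 4.12 TPM to 71.9 and 62.8 TPM (4.04 ± 0.34). MYL4 passed the filter through aNE_T alone. NPPB, which encodes a natriuretic peptide, rose from 7.57 and 11.5 TPM to 87.5 and 93.9 TPM (3.15 ± 0.23), with a difference of responses of -3.57 ± 0.33 between aNE and pNE. Among other genes that fell were GSC (30.4 and 28.4 TPM to 5.34 and 5.37 TPM), ZSCAN10 (77.9 and 77.6 TPM to 18.9 and 14.6 TPM) and MYCN (72.3 and 68.8 TPM to 25.2 and 26.9 TPM).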
